A study of Mus musculus with 8 samples.

Results

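The genes described here are 10 members of the interleukin-6 family and its signalling route in mouse mammary tumour cells: the ligand genes Il6, Il11, Lif and Clcf1, the receptor genes Il6ra, Il11ra1, Lifr, Osmr and Il6st, and the feedback inhibitor gene Socs3. They are the 10 rows, of 27179 in the gene count matrix, whose Entrez identifiers carry these symbols. RNA-seq was performed on 4 isogenic BALB/c lines grown in culture without treatment, 67NR, 66cl4, 4T1 and 4T1.2, each represented by 2 biological replicates. The 4T1.2 line spreads spontaneously to bone, whereas 66cl4 and 67NR have low metastatic potential. All 8 libraries were made from cultured tumour cells alone, so no host cells of a tumour were present. The question addressed is which of these cytokine and receptor transcripts differ between 4T1/4T1.2 cells and 66cl4/67NR cells, and between the lines of each pair.

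Cytokines of this family bind a receptor chain of their own and then join the shared chain gp130, encoded by Il6st, which passes the signal through JAK kinases to STAT3. Interleukin-6 and interleukin-11 use a pair of gp130 chains, while LIF pairs gp130 with the chain encoded by Lifr and oncostatin M with that encoded by Osmr. SOCS3 is induced by STAT3 and shuts gp130 signalling down. In breast cancer, interleukin-11 and interleukin-6 are among the factors by which tumour cells can drive osteoclast formation in bone. No such effect was examined here.

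The sequences below are shown because they lie directly before an annotated start of the 3 ligand genes and the inhibitor gene whose windows held a searched motif. They are the 250 bases upstream of a RefSeq start (GRCm38.p6), 5′ to 3′ on the gene's own strand. The capitals mark TGANTCA, the AP-1 motif, GGGNNTTTCC or its reverse complement, an NF-kappaB motif, and TTCNNNGAA, the STAT motif, each searched on both strands with no overlap between the matches.
Il6 promoter, chr5:30012864-30013113, plus strand: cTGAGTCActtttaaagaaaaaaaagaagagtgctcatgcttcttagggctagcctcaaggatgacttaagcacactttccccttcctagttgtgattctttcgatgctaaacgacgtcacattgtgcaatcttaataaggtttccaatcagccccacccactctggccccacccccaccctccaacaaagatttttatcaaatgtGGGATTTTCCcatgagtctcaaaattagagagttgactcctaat
Il11 promoter, chr7:4778142-4778391, minus strand, second of 2 annotated starts: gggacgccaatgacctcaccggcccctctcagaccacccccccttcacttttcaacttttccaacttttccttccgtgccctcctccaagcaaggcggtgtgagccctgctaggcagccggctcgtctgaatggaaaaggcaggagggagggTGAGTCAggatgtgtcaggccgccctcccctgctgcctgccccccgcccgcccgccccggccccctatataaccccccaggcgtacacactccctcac
Lif promoter, chr11:4257318-4257567, plus strand: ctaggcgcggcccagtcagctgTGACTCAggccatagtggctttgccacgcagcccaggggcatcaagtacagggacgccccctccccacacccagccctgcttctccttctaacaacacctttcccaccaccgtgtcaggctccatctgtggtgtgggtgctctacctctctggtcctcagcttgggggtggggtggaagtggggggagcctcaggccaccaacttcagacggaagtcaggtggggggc
Socs3 promoter, chr11:117969367-117969616, minus strand: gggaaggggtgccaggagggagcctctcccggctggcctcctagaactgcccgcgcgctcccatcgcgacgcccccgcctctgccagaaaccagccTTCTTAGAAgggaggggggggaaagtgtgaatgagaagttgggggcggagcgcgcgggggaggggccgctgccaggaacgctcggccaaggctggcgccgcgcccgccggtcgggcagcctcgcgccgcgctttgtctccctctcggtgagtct
The RefSeq table held windows for 9 of the 10 genes, 12 windows in all. The AP-1 motif was found in 3 genes (Il6, Il11 and Lif), the NF-kappaB motif in Il6 and the STAT motif in Socs3, where it lay 154 to 146 bases before the start. Of 32851 windows of the same length before all genes, 6.75% held the AP-1 motif, 1.41% the NF-kappaB motif and 7.02% the STAT motif. These motifs were chosen after the sequences were seen, and a match is a description of letters, not of a bound site. The Socs3 window lies inside the gene, which spans 117966079 to 117970336, so its start is an internal one and not the outermost. Gene models of GENCODE hold no transcript over the first bases after this Socs3 start.

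Levels are given as RPKM, the counts scaled to library size (adjusted by TMM) and to the length of the gene in kilobases, so that genes of different length can be compared. Il6st was the most abundant receptor transcript in all 4 lines and lay above 82.1%, 77.2%, 93.5% and 75.2% of the genes tested in 4T1.2, 4T1, 66cl4 and 67NR cells, respectively. Among the 4 ligand genes listed, Lif and Clcf1 held nearly all transcript, whereas Il11 was low and Il6 near the limit of detection. Of the family genes that could be tested, Lifr had the lowest level in 4T1.2, 4T1 and 66cl4 cells. In 67NR cells Il11 was about as low, at 0.348 RPKM against 0.360 for Lifr. Lifr had 6 to 230 counts per library.

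**Figure D1:**
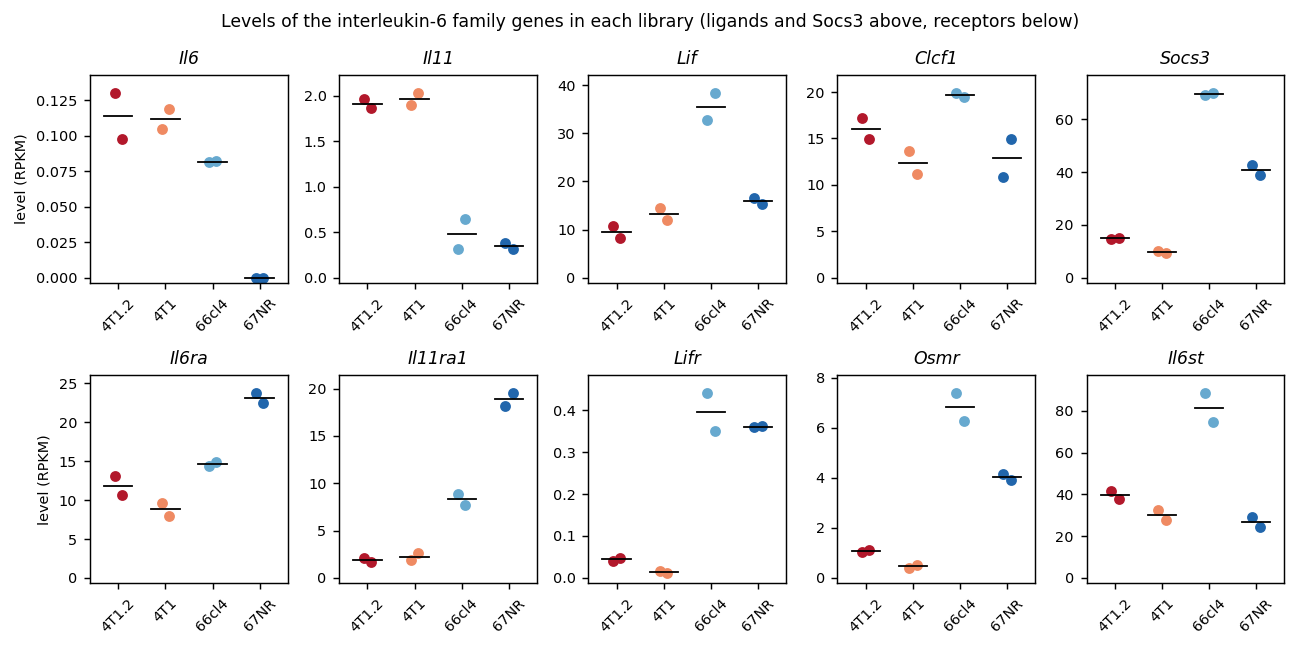
Level of each of the 10 genes in RPKM (vertical axes, a scale for each gene) in the 2 libraries of each line (points) with their mean (bars). Il11 is higher in both 4T1.2 and 4T1 cells, at 1.91 and 1.97 RPKM. Lif, Il6ra, Il11ra1, Lifr, Osmr and Socs3 are higher in all 66cl4 and 67NR libraries. The share of all genes separated in this way is not given here.

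Differences were tested with edgeR's quasi-likelihood test on counts, with Benjamini-Hochberg adjustment over 13922 genes and a threshold of 0.05. In the pooled comparison, the mean of 4T1 and 4T1.2 on the log2 scale was set against the mean of 66cl4 and 67NR. Of the 9 genes tested, 1 was higher in 4T1/4T1.2 cells (Il11), 7 were lower (Lif, Il6ra, Il11ra1, Lifr, Osmr, Il6st and Socs3) and Clcf1 did not pass. Across all genes 76.7% passed in this comparison, 38.1% higher and 38.6% lower, so that passing alone says little about these genes. The median log2 fold change of the 9 genes was -1.09, against -0.01 for all genes, and their median absolute change was 2.14, against 0.58. The genes were chosen with earlier results of these data known, so these medians are a description and not a test. The lines differed strongly in identity. Summed epithelial markers were 1509.7 to 2993 CPM in 4T1/4T1.2 libraries and 465 to 719.9 CPM in 66cl4/67NR libraries. CPM are counts scaled to the same TMM-adjusted library sizes as RPKM, but not to gene length. Epcam had 778 to 2378 counts in 4T1/4T1.2 libraries and 0 or 1 in 66cl4/67NR libraries. Of the 8 epithelial markers, 6 in 4T1.2, 7 in 4T1 and 2 in each of 66cl4 and 67NR had over 10 counts in both libraries. The defining epithelial genes Epcam, Cdh1 and Cldn3 were near 0 in 66cl4/67NR cells while Krt8 was abundant. Summed fibroblast markers, nearly all Vim, were 4857 to 7025 CPM and 1989 to 3695 CPM in the same order, while Col1a1 (33 to 53 against 151 to 321 counts), Col1a2 (0 to 2 against 15 to 55) and Lum (0 against 1 to 8) went the other way. The remaining fibroblast markers overlapped between the pairs, with 5351 to 9591 against 3252 to 6675 counts for Pdgfra and 7 to 26 against 16 to 26 for Dcn. Summed endothelial markers were 0.829 to 3.70 CPM in 4T1/4T1.2 libraries and 0.335 to 0.442 CPM in 66cl4/67NR libraries. Of 8 leucocyte markers, which summed to 4.04 to 5.61 CPM and 19.4 to 25.6 CPM, Cd3e and Adgre1 had no count in any library and Ptprc at most 2, but Lyz2 had 791 to 1387 counts in 66cl4 and 67NR and 0 to 4 in 4T1.2 and 4T1. Their part in the differences below was not tested, and in bulk RNA fewer cells with a transcript cannot be told apart from less transcript per cell.

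**Figure D2:**
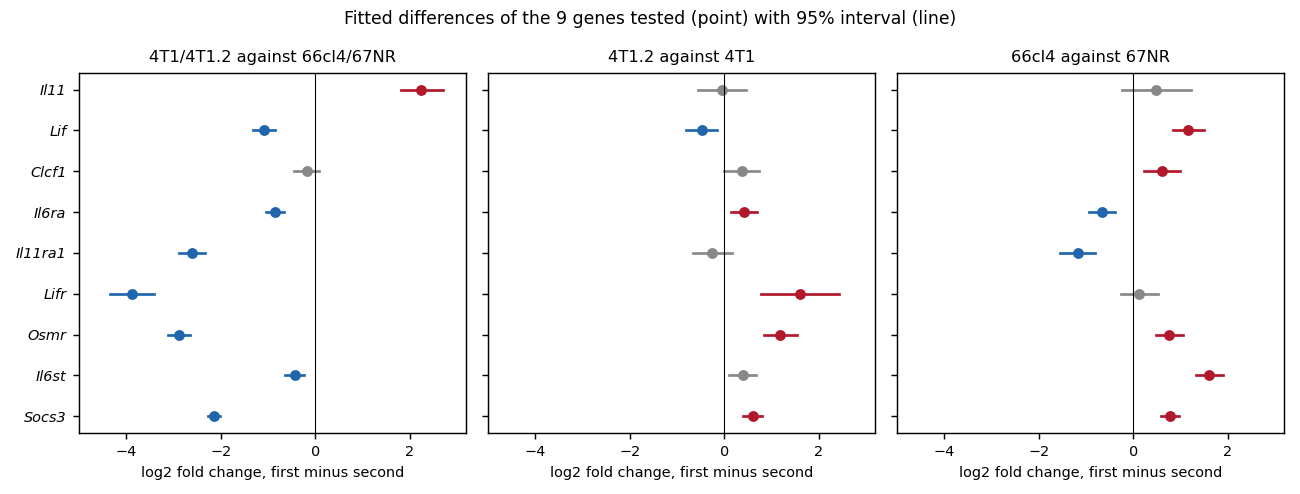
Fitted log2 fold change (point) with its 95% interval (line) for the 9 genes tested, in the pooled comparison and within each pair of lines (horizontal axes, first minus second group). Red marks genes higher, blue genes lower and grey genes not past an adjusted p of 0.05 from edgeR. In the pooled panel Il11 is the gene at the right, at 2.25, and Lifr is farthest left, at -3.89.

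Among the ligands, Il11 (chromosome 7, 4772373 to 4782907 in GRCm38, as are all positions here) was the only one of these 9 genes that was higher in 4T1/4T1.2 cells. Its counts were 216 and 205 in 4T1.2, 226 and 183 in 4T1, against 27 and 38 in 67NR and 28 and 56 in 66cl4. Per length this was 1.96 and 1.86 RPKM in 4T1.2, 1.90 and 2.03 in 4T1, against 0.379 and 0.317 in 67NR and 0.318 and 0.643 in 66cl4. All 4 libraries of the 4T1/4T1.2 pair lay above all 4 of the other pair. The fitted difference was 4.76-fold (log2 fold change 2.25, 95% interval 1.81 to 2.70, adjusted p = 2.71e-06, edgeR). Within the pairs the lines overlapped: 4T1.2 and 4T1 differed by a log2 fold change of -0.04 (95% interval -0.55 to 0.47) and 66cl4 and 67NR by 0.48 (95% interval -0.25 to 1.22). The latter value rested on the 66cl4 libraries, at 0.91 without replicate 1 of 66cl4 (adjusted p = 0.0293, edgeR) and -0.11 without replicate 2.

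Lif (chromosome 11, 4257568 to 4272514) encodes leukaemia inhibitory factor. It measured 10.7 and 8.18 RPKM in the 4T1.2 libraries, 14.5 and 11.9 in 4T1, against 16.5 and 15.3 in 67NR and 32.7 and 38.4 in 66cl4. The 66cl4 libraries stood well above the rest and the other 3 lines lay closer together. The pooled difference was 2.13-fold, lower in 4T1/4T1.2 cells (log2 fold change -1.09 with a standard error, SE, of 0.10, adjusted p = 6.51e-06, edgeR). In order of level, 66cl4 exceeded 67NR (2.23-fold, adjusted p = 0.000186, edgeR), 67NR and 4T1 did not differ beyond their spread (log2 difference 0.27, adjusted p = 0.130), and 4T1 exceeded 4T1.2 by 1.40-fold (adjusted p = 0.0476). That last call was lost on leaving out replicate 2 of 4T1.2 (adjusted p = 0.258), replicate 1 of 4T1 (0.143) or any library of 66cl4 and 67NR (0.0552 to 0.0861, edgeR). Without replicate 1 of 4T1, the difference between 4T1 and 67NR passed (log2 fold change -0.41, adjusted p = 0.0355, edgeR).

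Clcf1 (chromosome 19, 4214238 to 4223505) encodes cardiotrophin-like cytokine factor 1, which signals through the ciliary neurotrophic factor receptor. It measured 17.2 and 14.9 RPKM in 4T1.2, 13.6 and 11.2 in 4T1, against 10.8 and 14.9 in 67NR and 19.9 and 19.5 in 66cl4. The groups of the pooled comparison overlapped, with a log2 fold change of -0.17 (95% interval -0.44 to 0.09, adjusted p = 0.201, edgeR). No 2 neighbouring lines in its order of levels differed beyond their spread, but 66cl4 exceeded 4T1 by 1.58-fold (adjusted p = 0.00544, edgeR) and 67NR by 1.52-fold (adjusted p = 0.0153). The latter call was lost without replicate 1 of 66cl4 (adjusted p = 0.0632, edgeR), replicate 2 of 66cl4 (0.0518) or replicate 1 of 67NR (0.117). Between 4T1.2 and 67NR a log2 difference of 0.31 (adjusted p = 0.122, edgeR) became 0.57 (adjusted p = 0.0267) without replicate 2 of 67NR. The 4T1 and 67NR lines, the lowest pair, differed by -0.06, by 0.07 without replicate 2 of 4T1 and by 0.20 without replicate 2 of 67NR. Of the 75-base stretches of Clcf1, 6.1% also occur in AC109138.7, a gene model that shares its exons in part.

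Il6 (chromosome 5, 30013114 to 30019975) was too low for the filter on low counts. It had 8 and 6 counts in 4T1.2, 7 and 6 in 4T1, 4 and 4 in 66cl4, and none in either 67NR library, which allows up to 3 counts in each (counting error only). This corresponds to 0.114 RPKM in 4T1.2, 0.112 in 4T1 and 0.0817 in 66cl4. The observed Il6 level was 1.89 times that of 3 counts per 67NR library for 4T1.2 and 1.87 times for 4T1. These ratios leave out the counting error of the 4T1.2 and 4T1 counts, so they are not lower bounds. When no filter was applied, with 18282 genes tested, Il6 passed in the pooled comparison (adjusted p = 0.00848, edgeR) and in 66cl4 against 67NR (adjusted p = 0.0292), but not in 4T1.2 against 66cl4 (adjusted p = 0.615).

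Summed over the 4 ligands, transcript levels were 27.5 ± 3.50 RPKM in 4T1.2, 27.7 ± 3.35 in 4T1, against 29.1 ± 2.03 in 67NR and 55.8 ± 4.01 in 66cl4 (SD, n = 2). Clcf1 made up 58.4% of the sum in 4T1.2, whereas Lif led in the other 3 lines, with 47.6% in 4T1, 63.6% in 66cl4 and 54.9% in 67NR.

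**Figure D3:**
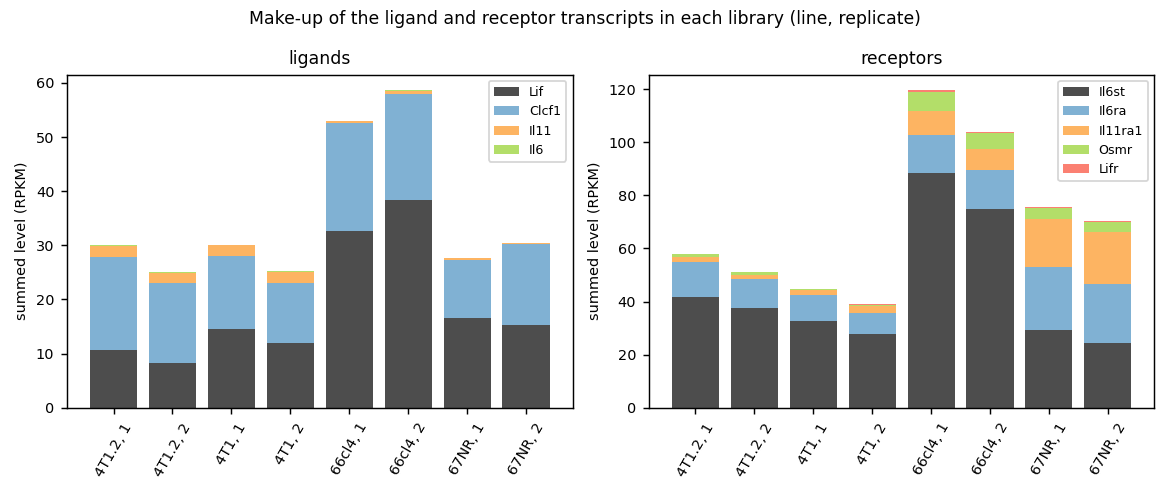
Stacked levels in RPKM (vertical axes) of the 4 ligand transcripts (left) and the 5 receptor transcripts (right) in each library (horizontal axes, line and replicate). The 66cl4 libraries have the tallest bars in both panels, and 67NR is the line in which Il6st is a minor part of the receptor sum, 36.5%.

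All 5 receptors were lower in 4T1/4T1.2 cells in the pooled comparison, by log2 fold changes between -0.43 for Il6st and -3.89 for Lifr. Of all genes tested, 38.6% were lower there. Il6ra (chromosome 3, 89869324 to 89913196), the interleukin-6 binding chain, measured 13.1 and 10.6 RPKM in 4T1.2, 9.65 and 8.01 in 4T1, against 23.7 and 22.5 in 67NR and 14.4 and 14.9 in 66cl4. The lines lay in the order 67NR, 66cl4, 4T1.2 and 4T1 with no overlap between any of them. The pooled difference was 1.80-fold, lower in 4T1/4T1.2 (log2 fold change -0.85, SE 0.09, adjusted p = 1.20e-05, edgeR). The step from 67NR to 66cl4 was 1.57-fold (adjusted p = 0.00212, edgeR), and the next, from 66cl4 to 4T1.2, 1.24-fold (adjusted p = 0.0465). Genes of chromosome 3 as a whole moved alongside: the 668 tested had a median log2 fold change of -0.59 in 66cl4 against 67NR, close to the -0.66 of Il6ra, and of -0.35 in the pooled comparison. The part of this shift in the differences of Il6ra was not tested. Of the small steps, 4T1.2 above 4T1 (1.34-fold, adjusted p = 0.0445, edgeR) was lost without replicate 1 of 4T1.2 (adjusted p = 0.301), replicate 2 of 4T1 (0.160) or any library of 66cl4 and 67NR (0.0651 to 0.0829). The step between 66cl4 and 4T1.2 was lost without replicate 2 of 4T1.2 (adjusted p = 0.342, edgeR), replicate 1 (0.0995) or 2 (0.145) of 66cl4, or replicate 1 (0.0738) or 2 (0.0737) of 67NR. The antisense gene model Gm42809 overlaps 2.8% of the exonic bases of Il6ra, and the strand setting of the counting is not given.

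Il11ra1 (chromosome 4, 41760443 to 41769473), the interleukin-11 binding chain, measured 2.07 and 1.66 RPKM in 4T1.2, 1.86 and 2.63 in 4T1, against 18.2 and 19.5 in 67NR and 8.87 and 7.73 in 66cl4. It thus stood opposite to its ligand: highest in 67NR, intermediate in 66cl4 and lowest in the 4T1/4T1.2 pair, whose 2 lines overlapped. The pooled difference was 6.12-fold, lower in 4T1/4T1.2 cells (log2 fold change -2.61, SE 0.12, adjusted p = 3.22e-08, edgeR). In single lines, 67NR exceeded 66cl4 by 2.27-fold (adjusted p = 0.000305, edgeR) and 66cl4 exceeded 4T1 by 3.72-fold (adjusted p = 7.12e-06). Of its 75-base stretches, 35.9% also occur in the predicted gene Gm13305, so its level is uncertain to the extent that reads were split between copies.

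Osmr and Lifr lie next to each other on chromosome 15 (6813568 to 6874968 and 7090610 to 7197489), 215.6 kb apart with no other protein-coding gene between them. Osmr, the oncostatin M receptor chain, measured 1.03 and 1.11 RPKM in 4T1.2, 0.417 and 0.527 in 4T1, against 4.13 and 3.91 in 67NR and 7.37 and 6.25 in 66cl4. None of the lines overlapped, and each step of the order 66cl4, 67NR, 4T1.2 and 4T1 passed the test. The steps were 1.70-fold (adjusted p = 0.00118, edgeR), 3.75-fold (adjusted p = 1.30e-06) and 2.28-fold (adjusted p = 0.000735), and the pooled difference was 7.38-fold, lower in 4T1/4T1.2 (log2 fold change -2.88, SE 0.10, adjusted p = 3.47e-09).

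Lifr, the LIF receptor chain, had 24 and 28 counts in 4T1.2, 10 and 6 in 4T1, against 136 and 230 in 67NR and 206 and 162 in 66cl4. As levels these were 0.0409 and 0.0478 RPKM in 4T1.2, 0.0159 and 0.0125 in 4T1, against 0.359 and 0.361 in 67NR and 0.440 and 0.350 in 66cl4. The 66cl4 and 67NR libraries overlapped at the top, 4T1.2 was far below and 4T1 lower again. The pooled difference, 14.8-fold, was the largest of the 9 genes (log2 fold change -3.89, 95% interval -4.35 to -3.42, adjusted p = 1.86e-08, edgeR). The 4T1.2 level exceeded that of 4T1 by 3.05-fold (adjusted p = 0.0108, edgeR), a call that was lost without replicate 2 of 4T1.2 (log2 fold change 1.49, adjusted p = 0.0655). The 574 tested genes of chromosome 15 had a median log2 fold change of 0.14 in the pooled comparison, opposite in sign to Osmr and Lifr.

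Il6st (chromosome 13, 112464070 to 112506860), encoding gp130, measured 41.6 and 37.7 RPKM in 4T1.2, 32.7 and 27.7 in 4T1, against 29.3 and 24.2 in 67NR and 88.4 and 74.7 in 66cl4. The 66cl4 libraries were the highest and 67NR the lowest on average, so the groups of the pooled comparison overlapped. Its pooled log2 fold change of -0.43 (SE 0.09, adjusted p = 0.00172, edgeR) therefore averaged 2 unlike lines. Against 66cl4, 4T1.2 was lower by 2.05-fold (adjusted p = 6.55e-05, edgeR), but against 67NR it was higher by 1.49-fold (log2 fold change 0.57, adjusted p = 0.00323). The 66cl4 line exceeded 67NR by 3.05-fold (adjusted p = 1.28e-05, edgeR), the largest difference of a family gene between these 2 lines. The 4T1 and 67NR lines overlapped (log2 fold change 0.18, 95% interval -0.11 to 0.47). Set against 4T1, the 4T1.2 line had a log2 fold change of 0.39 (adjusted p = 0.0631, edgeR), and without replicate 1 of 4T1 it was 0.52 (adjusted p = 0.0228).

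The balance between gp130 and the ligand-binding chains is described here by ratios of levels, which were not tested. The level of Il6st over that of Il6ra was 3.38 ± 0.275 in 4T1.2, 3.42 ± 0.0452 in 4T1, against 1.15 ± 0.111 in 67NR and 5.57 ± 0.778 in 66cl4 (ratio of RPKM, SD, n = 2). Over Il11ra1, Il6st stood at 20.1 and 22.7 in 4T1.2 and at 17.6 and 10.5 in 4T1, against 1.61 and 1.24 in 67NR and 9.97 and 9.67 in 66cl4. Both ratios were thus lowest in the 67NR libraries. The 5 receptors summed to 57.8 and 51.1 RPKM in 4T1.2 and 44.7 and 38.9 in 4T1, against 75.7 and 70.5 in 67NR and 119 and 104 in 66cl4. Il6st was 72.9% of this sum in 4T1.2, 72.2% in 4T1 and 72.9% in 66cl4, but 36.5% in 67NR.

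The window with the STAT motif, shown above, lies before a start inside the span of Socs3 (chromosome 11, 117966079 to 117970336). Socs3 was among the more abundant transcripts of 66cl4 cells, above 92.0% of the genes tested. It measured 14.6 and 15.1 RPKM in 4T1.2, 10.1 and 9.49 in 4T1, against 42.8 and 39.1 in 67NR and 69.3 and 70.0 in 66cl4. The replicates lay close together and no lines overlapped. Socs3 was 4.42-fold lower in 4T1/4T1.2 cells (log2 fold change -2.14, SE 0.06, adjusted p = 7.95e-10, edgeR). Each step of its order passed the test: 66cl4 over 67NR by 1.70-fold (adjusted p = 8.19e-05, edgeR), 67NR over 4T1.2 by 2.76-fold (adjusted p = 2.80e-07) and 4T1.2 over 4T1 by 1.51-fold (adjusted p = 0.00137). This is the order in which Osmr lay, and the profiles of these 2 genes over the 8 libraries were close (root mean square difference of centred log2 CPM 0.43). Such closeness was not particular to them, since Clcf1 and Il6st lay 0.42 apart.

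Within the 4T1/4T1.2 pair, 5 of the 9 genes passed, against 19.3% of all genes (9.37% higher and 9.92% lower): Il6ra, Lifr, Osmr and Socs3 were higher in 4T1.2 than in 4T1, and Lif was lower. With each library left out in turn, the number that passed was 3 to 5. The call held in every such fit for Osmr and Socs3, but not for Lifr, Lif and Il6ra, as given above. Between 66cl4 and 67NR, 7 of the 9 passed, against 44.7% of all genes (22.2% higher and 22.4% lower): Lif, Clcf1, Osmr, Il6st and Socs3 were higher in 66cl4, and Il6ra and Il11ra1 were lower. In the comparisons of a single line of each pair, which share libraries with the pooled one, Il11 was higher and Lifr, Osmr, Il11ra1, Il6ra and Socs3 were lower in all 4. The numbers that passed were 8 of 9 in 4T1.2 against 66cl4, where 68.8% of all genes did (34.3% higher, 34.5% lower), and 8 in 4T1.2 against 67NR, where 67.9% did (33.7% higher, 34.1% lower). They were 9 in 4T1 against 66cl4, with 70.1% of all genes (34.9% higher, 35.2% lower), and 6 in 4T1 against 67NR, with 68.2% (33.8% higher, 34.4% lower).

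Beyond these members, 63 other genes of the pathway were grouped into 6 lists by role. Of the 55 that could be tested, 27 were higher in 4T1/4T1.2 cells, 24 were lower and 4 did not pass, so that 92.7% passed, against 76.7% of all genes. Their median log2 fold change was 0.13, and 17 of the 55 (30.9%, against 19.3% of all genes) passed in 4T1.2 against 4T1 and 35 (63.6%, against 44.7%) in 66cl4 against 67NR. Each list below is counted in the pooled comparison, where 38.1% of all genes were higher and 38.6% lower.

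Of 8 other ligands, 4 could be tested, of which 3 were higher in 4T1/4T1.2 cells, none was lower, and 1 did not pass. Cntf, ciliary neurotrophic factor, was higher by 1.28 and Ctf1, cardiotrophin 1, by 1.12 on the log2 scale (adjusted p = 0.00191 and 8.65e-07, edgeR). The Cntf value rests on 16 to 30 counts in a 4T1/4T1.2 library against 4 to 16 in the others. For Cntf, 4T1 against 67NR did not pass (log2 fold change 0.54, adjusted p = 0.214, edgeR). Osm, which encodes oncostatin M, and Il31 had 0 counts in all 8 libraries, which allows up to 3 counts in each (counting error only). Transcript of the receptor Osmr was thus measured in all lines, and that of its main ligand in none.

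Of 6 other receptors, 4 could be tested, 2 higher and 2 lower. Cntfr, the ciliary neurotrophic factor binding chain that the Clcf1 product also uses, had 385 and 306 counts in 4T1.2, 941 and 620 in 4T1, and 0 or 1 in each 66cl4 and 67NR library. The 4T1/4T1.2 libraries together held 2252 counts and the others 2, a ratio of 961 after scaling for library size (exact Poisson 95% interval 266 to 7936, counting error only). Il27ra, which joins gp130 for interleukin-27, had 6.31 and 7.07 RPKM in 4T1.2, 4.45 and 4.80 in 4T1 and 0.0420 to 0.329 in the other 4 libraries (log2 fold change 5.32, adjusted p = 3.72e-10, edgeR). Lepr, the leptin receptor, and Il11ra2, a second interleukin-11 receptor copy, were lower by log2 fold changes of -3.03 and -2.60 (adjusted p = 1.73e-07 and 2.10e-06, edgeR). The Il11ra2 value is uncertain, since all of its 75-base stretches occur in other gene models. Il31ra had at most 2 counts in a library and Csf3r, the receptor for granulocyte colony stimulating factor, 0 in all.

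All 11 kinases, STATs and adaptors passed, 2 higher and 9 lower, where 76.7% of all genes passed (38.1% higher, 38.6% lower). Jak2, a gp130-associated kinase, measured 106 and 101 RPKM in 4T1.2, 75.7 and 76.6 in 4T1, against 18.4 and 17.1 in 67NR and 39.1 and 40.7 in 66cl4 (pooled log2 fold change 1.74, adjusted p = 2.52e-09, edgeR). Jak1, chosen after its values were seen, was lower (log2 fold change -0.48, adjusted p = 2.25e-05, edgeR), but its groups overlapped, with the highest level in 66cl4 (63.9 RPKM) and 40.3 and 40.6 RPKM in 4T1 and 67NR (log2 fold change -0.01, adjusted p = 0.909). Jak2 over Jak1 was 3.15 ± 0.135 in 4T1.2, 1.89 ± 0.0807 in 4T1, against 0.437 ± 0.0182 in 67NR and 0.625 ± 0.0149 in 66cl4 (ratio of RPKM, SD, n = 2). The adaptor Gab1 was nearly absent from 4T1/4T1.2 cells, with 26 to 52 counts against 1895 to 3974, a log2 fold change of -6.42 (SE 0.11, adjusted p = 2.02e-11, edgeR). Its paralogue Gab2 was higher by 0.72 (adjusted p = 0.000127, edgeR). Tyk2, a further JAK family kinase, was lower by a log2 fold change of -0.92 (adjusted p = 2.87e-06, edgeR). Stat3, Stat5a and Stat5b, like Jak1 chosen after their values were seen, were lower by -0.33, -0.44 and -0.37. Their groups overlapped, with the highest mean level in 66cl4. Between 4T1 and 67NR they differed by -0.08, -0.09 and -0.04 (adjusted p = 0.579, 0.535 and 0.693, edgeR).

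Of 14 inhibitors and phosphatases, 9 were higher, 4 lower and 1 did not pass (all genes: 38.1% higher, 38.6% lower). Ptpn6, which encodes the phosphatase SHP-1, and Socs2 were higher by 1.99 and 1.35 on the log2 scale (adjusted p = 1.32e-09 and 3.99e-07, edgeR). The Socs2 groups overlapped, and 4T1.2 and 66cl4 differed by a log2 fold change of -0.02 (adjusted p = 0.879, edgeR). Socs1, with Socs3 the other potent JAK inhibitor of its family, was lower by -1.53 (adjusted p = 3.87e-08, edgeR), as were Pias3 (-1.22, adjusted p = 1.04e-06) and Pias1 (-0.67, adjusted p = 6.29e-06). Cish passed as higher, but its groups overlapped, with 35 to 79 counts in 4T1.2, 4T1 and 66cl4 libraries and 0 in both of 67NR. Its observed level in 66cl4 was 20.6 times that of 3 counts per 67NR library, with the counting error of the 66cl4 counts left out. The 2 sheddases that release soluble interleukin-6 receptor were both higher, Adam17 by 0.82 and Adam10 by 0.30 (adjusted p = 1.42e-06 and 0.00173, edgeR).

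Of 22 STAT3 target genes, 20 could be tested, of which 9 were higher, 9 lower and 2 did not pass (all genes: 38.1% higher, 38.6% lower). Their median log2 fold change was 0.08. Icam1, Lcn2 and Lrg1 were the largest among the higher genes, at 5.16, 4.15 and 3.44 (adjusted p = 6.80e-10, 1.97e-08 and 0.000147, edgeR); they encode an adhesion molecule, lipocalin 2 and a secreted glycoprotein, and Icam1 and Lcn2 are also NF-kappaB targets. The Lrg1 value rests on 7 to 25 counts in a 4T1/4T1.2 library against 1 or 2 in the others, a ratio of 12.5 after scaling for library size (exact Poisson 95% interval 5.10 to 39.5, counting error only). The lower genes were led by the transcription factor genes Cebpd, Junb and Bcl6, at -3.07, -0.97 and -0.90 (adjusted p = 1.14e-09, 1.23e-07 and 2.00e-05, edgeR). Cebpd measured 2.02 to 3.54 RPKM in the 4 libraries of 4T1/4T1.2 and 20.8 to 24.3 in the others, a split like that of Socs3.

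**Figure D4:**
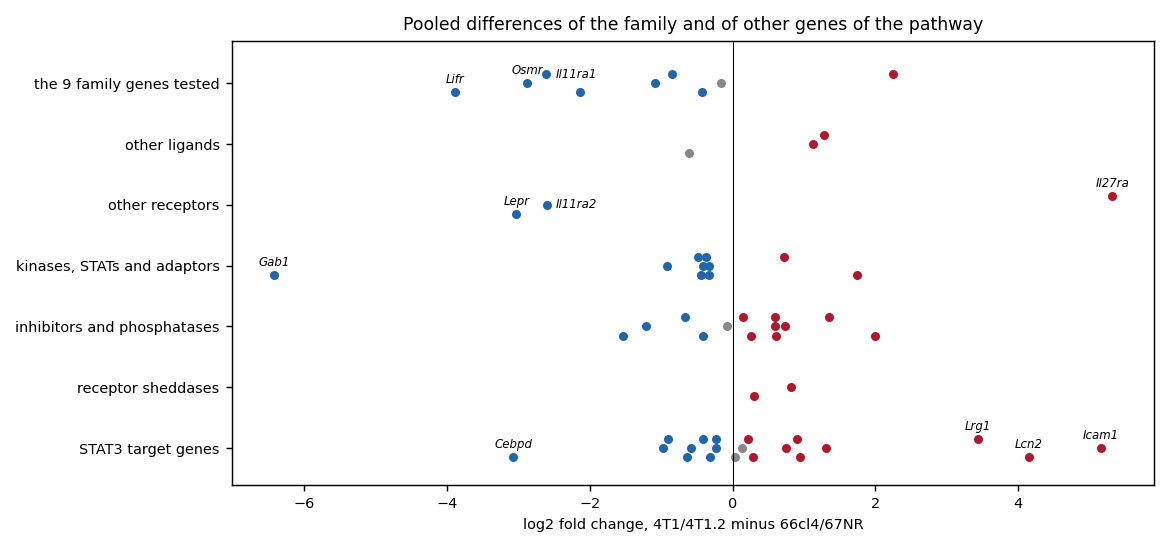
Pooled log2 fold change (horizontal axis, 4T1/4T1.2 minus 66cl4/67NR) of the 9 family genes tested and of the other pathway genes by list (rows), one point per gene. Red marks genes higher, blue genes lower and grey genes not past an adjusted p of 0.05 from edgeR, and genes beyond 2.5 in size are named. Cntfr and Cish are left out because libraries at 0 or 1 count leave their fitted values undetermined, and 2 further genes are not shown. Gab1, at -6.42, and Il27ra, at 5.32, lie at the ends.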

How the data were processed

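Libraries were prepared with the TruSeq RNA v2 protocol from 2 samples per line, which the study calls biological replicates. The authors aligned reads to mm10 with Rsubread and deposited raw counts per Entrez gene from featureCounts, without normalization. The strand setting is not given in the sources used here. The labels spell the line 66cl4 as 66c14. Totals ran from 37159840 to 66269681 counts per library, and values from the per-sample files equalled the matrix in 8 of 8 libraries.

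Genes were filtered with filterByExpr (15269 kept), and predicted, ribosomal and unmatched genes were removed, leaving 13922. Counts were tested with edgeR 4.0.16 (legacy quasi-likelihood fit, TMM, prior count 0.125, a mean per line, 4 residual degrees of freedom, R 4.3.3). Adjusted p-values are Benjamini-Hochberg values. Standard errors and 95% intervals were taken from the fitted weights and are approximate. The biological coefficient of variation was 9.74%. RPKM used TMM library sizes and the gene lengths deposited with the counts. In simulated counts only 200 of the 13922 genes were changed. For the pooled comparison, 85 of 100 genes with a log2 change of 1 were recovered and 97 of 100 with a change of 2, with 15 false calls. For 4T1.2 against 4T1 these numbers were 75, 95 and 15. In the data 76.7% of genes passed in the pooled comparison, so the simulated rates need not hold there. Replicates of every line differed by more than counting noise. P-values measure the spread between these samples, which may in part be technical.

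All 10 family genes are named. From the other pathway lists, up to 3 genes in each direction with the largest pooled change past the threshold, and genes with at most 3 counts in every library, are named with values, except for 2 genes that are not reported here. Jak1, Stat3, Stat5a and Stat5b are named as well, after their values were seen. The members and lists were chosen with earlier results of these data known. Alternatives were DESeq2 1.42.0 size factors and its Wald test, limma-voom (limma 3.58.1), the newer quasi-likelihood fit, no low-count filter, no removal by annotation, a prior count of 2, a replicate term, library totals for levels, and leaving out each library. Sequences were taken from RefSeq, and figures were drawn with matplotlib 3.10.9.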

Additional observations from a re-analysis of the deposited data

How the results depend on the processing

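In the pooled comparison 8 of the 9 family genes passed in each fit that left out 1 library and under the other alternatives, except that with no filter on low counts Il6 was tested as well and 9 of 10 passed. Over the 7 comparisons, 50 of 63 family results kept direction and call under all alternatives. For 4T1.2 against 4T1, 3 family genes passed with no removal by annotation and 3 to 5 with a library left out. The number of all genes passing there, 2685, ranged from 1372 (without replicate 1 of 4T1.2; 1427 without replicate 2) to 3106, and for 66cl4 against 67NR, 6217, from 4141 (without replicate 2 of 67NR) to 6936. For these changes in counts the cause was not tested.

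Some values that did not pass changed sign with 1 library left out. In 4T1.2 against 4T1 without replicate 2 of 4T1, the log2 fold change of Il11 became 0.00 (range over all such fits -0.09 to 0.00) and that of Il11ra1 0.01 (-0.49 to 0.01). For 66cl4 against 67NR, Il11 became -0.11 without replicate 2 of 66cl4 (-0.11 to 0.91) and Lifr -0.04 without replicate 1 (-0.04 to 0.29). Clcf1 in 4T1 against 67NR became 0.07 without replicate 2 of 4T1 and 0.20 without replicate 2 of 67NR (-0.26 to 0.20). In the pooled comparison, Ebi3 became 0.64 without replicate 1 of 66cl4 (-1.04 to 0.64), and Cebpb became -0.02 without replicate 1 of 4T1.2 and -0.01 without replicate 1 of 66cl4 or of 67NR (-0.02 to 0.10).

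Other changes of call without a library left out concerned 4T1.2 against 4T1 and 4T1.2 against 66cl4. In the former, Il6st passed with no filter on low counts (adjusted p = 0.0408, edgeR) and with DESeq2's Wald test (0.0329), Lif was lost with no removal by annotation (0.0595), and Il6ra was lost there (0.0506) and with limma-voom (0.0511). In the latter, Il6ra was lost with DESeq2 size factors (0.0502), no filter (0.0547) and no removal by annotation (0.0757, edgeR).

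The replicate numbers were not shown to pair the samples: correlations of same-numbered deviations between lines ran from -0.12 to 0.27. With the replicate block, 6 instead of 5 family genes passed in 4T1.2 against 4T1, since Il6st passed (log2 fold change 0.40, adjusted p = 0.00774, edgeR), and it changed no other family call.

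Depth limits Il6 and Lifr most, at 0 to 8 and 6 to 230 counts. With library totals in place of TMM sizes, 28 of 40 levels stayed within 1 SD, and levels were 0.884 to 0.987 times as high. The lines and their replicates are too few to separate metastatic ability from other properties of each line.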

Other observations

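Lifr had the widest range of line means among the family genes tested (4.47 on the log2 CPM scale with a prior count of 2). Of all genes tested, those whose centred profiles over the 8 libraries lay closest to that of Lifr were Hspa1b and Hspa1a, which encode inducible heat shock proteins, with root mean square differences of 0.21 and 0.23. They were followed by Boc, a cell surface receptor gene, at 0.26, 9430018G01Rik at 0.32 and Rgs9, a regulator of G protein signalling, at 0.39. The median over all genes tested was 1.94. Hspa1a and Hspa1b are near-identical copies, so reads can be split between them, and these 8 libraries share only 4 lines. Among the family itself, the nearest profile to Lifr was that of its neighbour Osmr, at 0.50.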
